A study of Homo sapiens with 9 samples.

Results

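The comparison described here set MDA-MB-231 cells exposed to YM-155 for 20 h against untreated cells of the same line. Its members were the 3 arrays labelled as YM-155 at 20 h and the 3 labelled as control, 6 of the 9 arrays of the study, read across 22109 genes that each had 1 gene symbol. MDA-MB-231 was established from the pleural effusion of a breast cancer and is a standard human cell line model of the triple-negative, mesenchymal-like form of the disease. YM-155 (sepantronium bromide) is a small molecule developed as a suppressor of survivin, the product of BIRC5. The 20 h cells received 14.6 ng/ml, given as the LC50, the median lethal concentration. The control cells had no treatment, and neither a vehicle nor a time was given for them, although YM-155 was dissolved in DMSO and diluted in HBSS, a balanced salt solution. The remaining 3 arrays came from cells given YM-155 in increments that totalled 83 ng/ml and collected at 8 h, so dose and time differ together between the treated groups. The labels do not say whether replicates are separate cultures. The p-values therefore reflect only how far these samples spread, and that spread may be technical.

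Total RNA was hybridised to Affymetrix whole-transcript arrays, and every level below is an RMA value on the log2 scale, where a difference of 1 is 2-fold. A probe set is the group of probes that reads 1 transcript, and a gene with several was read by its brightest. The number of arrays limits the precision. RNA was brought to 1 concentration before labelling and RMA aligns the arrays, so levels are relative to all RNA of the sample. In bulk RNA such as this, fewer cells of a type or cycle phase and less RNA per cell cannot be told apart. Of the line's own markers, CD44 read between 9.03 and 9.26 on all 6 arrays and VIM, which encodes vimentin, between 8.40 and 8.75. The oestrogen receptor gene ESR1 read 2.59 to 3.17 and the leukocyte gene PTPRC 1.74 to 1.85, both below the median level of all genes, 3.89. These genes do not stand for all markers. Above that median lay the mean levels of 12 of 13 line, 11 of 18 luminal epithelium and 3 of 17 leukocyte markers.

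Proliferating cells express the genes of DNA replication and of mitosis in waves. Repressor and activator complexes that contain RB-family, E2F, B-MYB and FOXM1 proteins act on the promoters of these genes. Survivin belongs both to the inhibitor of apoptosis family and to the chromosomal passenger complex, which corrects the attachment of chromosomes to the spindle, so BIRC5 is itself a gene of mitosis. Immediate early genes, NF-kB targets and the stress programmes of ATF4, HSF1 and NRF2 are by contrast switched on within hours by signalling, protein damage or oxidants. Many of their transcripts are short-lived.

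Cells after 20 h of YM-155 had lower RNA of nearly the whole apparatus of chromosome segregation and DNA replication than untreated cells, and higher RNA of immediate early, NF-kB, stress and sterol genes. In limma, with p-values adjusted over all genes by the method of Benjamini and Hochberg and called under 0.05, 6704 of 22109 genes (30.3%) differed. Of these, 2894 (13.1% of those tested) were higher and 3810 (17.2%) lower. At least 2-fold, 585 (2.65%) were higher and 864 (3.91%) lower. At least 4-fold, the counts were 97 and 94, and at least 8-fold they were 15 and 5. All 3 of the 20 h arrays lay above all 3 controls for 4249 genes (19.2%) and below them for 4728 (21.4%). The 15 largest rises and 15 largest falls named below were chosen among such genes. A lack of overlap in them therefore follows from the choice. The median change over all genes was 0.028. With the genes split by level into 4 equal groups, 3.35% of the lowest group were higher and 1.03% lower, against 23.4% and 34% of the highest group. In the third group the shares were 16.6% and 28.2%. Counts of the lists below are to be read beside these shares, because brighter genes were called more often.

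**Figure D1:**
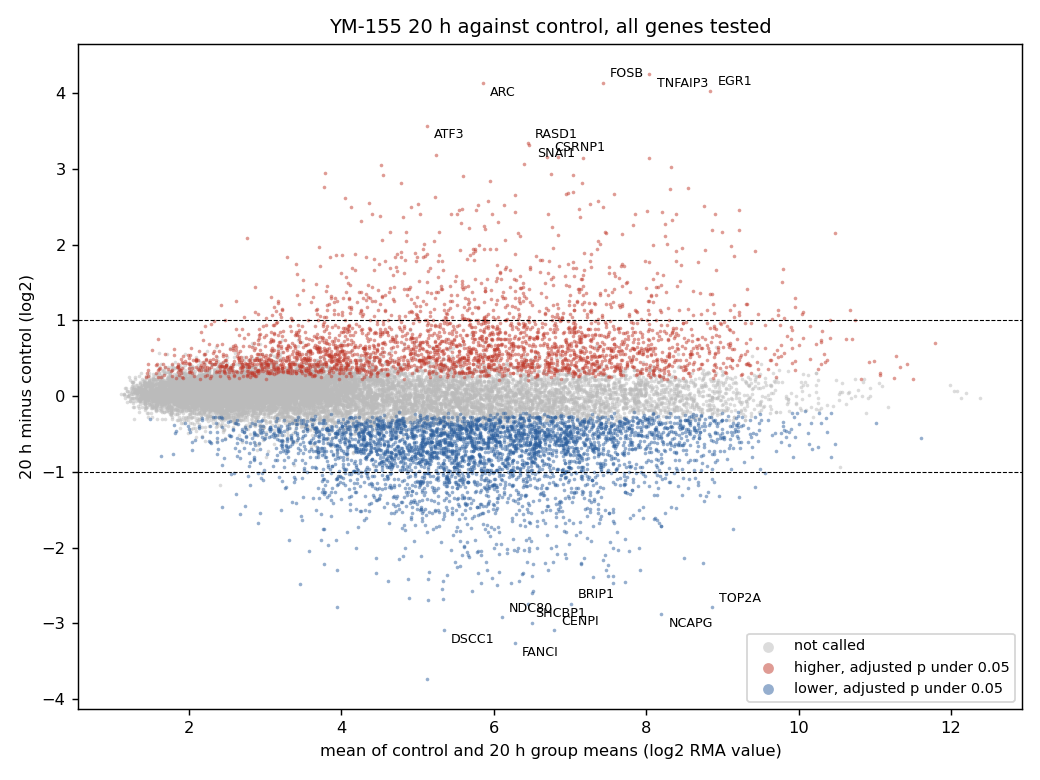
Each point is 1 of the 22109 genes, with the mean of the 2 group means (log2 RMA value) on the horizontal axis and the 20 h minus control difference (log2) on the vertical axis. Genes past the adjusted p are red (higher) or blue (lower), dashed lines mark a 2-fold change, and the 8 largest rises and 8 largest falls of the named genes carry their symbols. The labelled rises lie above 3 and the labelled falls below -2.7, and the unlabelled lowest point is the pseudogene GUSBP3, named after its value was seen.

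One control array, replicate 3, was unlike the others. The SD of its gene-wise difference was 0.312 from control 1 and 0.313 from control 2, taken over the 11054 brighter genes (above the median of all genes), while controls 1 and 2 differed with an SD of 0.187 and the 20 h arrays among themselves with 0.207 to 0.228. Control arrays differed from 20 h arrays with SDs of 0.633 to 0.750. The genes called at least 2-fold lower at 20 h were lower in control 3 than in the other controls by a median of 0.14 (the median was -0.14), and those called at least 2-fold higher were higher in it by 0.28, against 0.011 over all genes. Without control 3, 705 genes were higher and 955 lower at least 2-fold. Results for the lists below that moved most in control 3 are therefore also given without it.

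**Figure D2:**
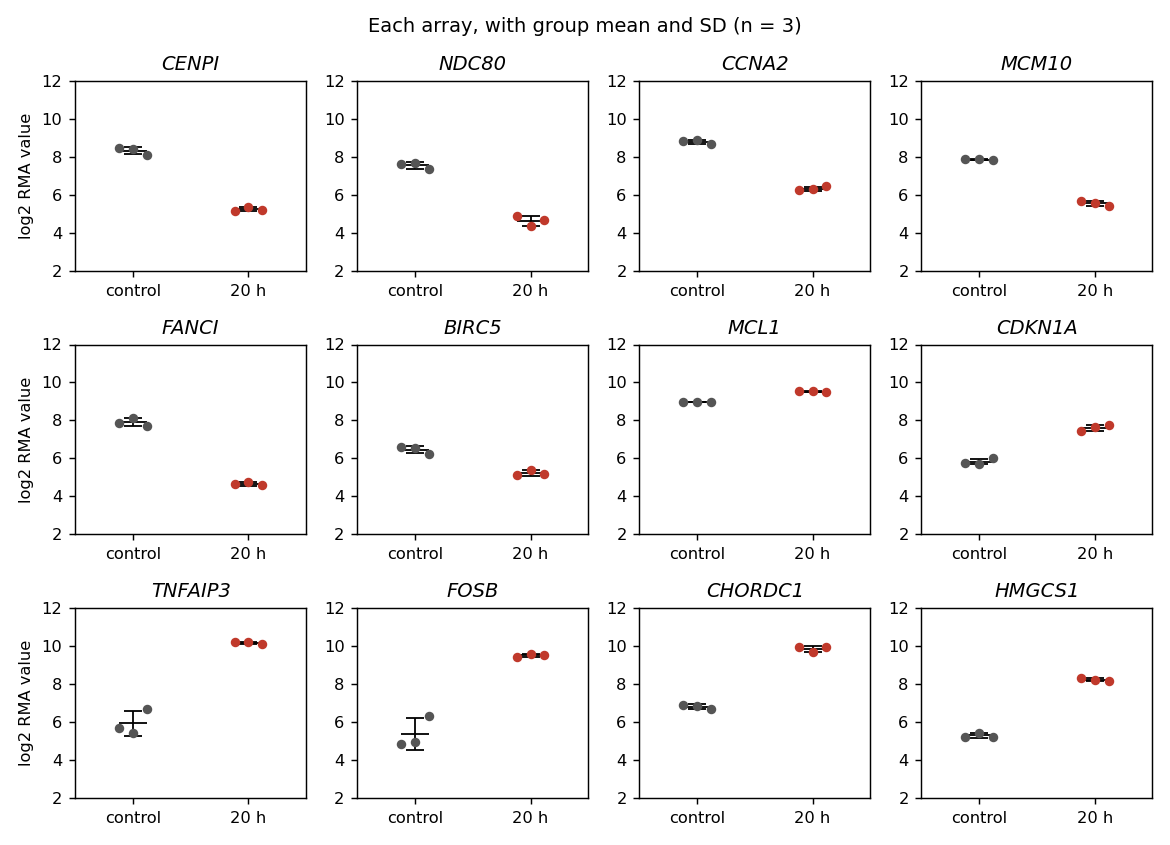
Level of 12 genes on each array (log2 RMA value, vertical axis), with the controls in grey and the 20 h arrays in red. Horizontal bars give the group mean and SD, n = 3. The 20 h arrays lie below the controls for CENPI, NDC80, CCNA2, MCM10, FANCI and BIRC5 and above them for MCL1, CDKN1A, TNFAIP3, FOSB, CHORDC1 and HMGCS1, and control 3 is the highest control for TNFAIP3 and FOSB.

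The kinetochore, the protein plate that links each centromere to spindle microtubules, held the deepest fall of any list. CENPI, of the inner kinetochore, read 8.47, 8.43 and 8.12 in the controls and 5.16, 5.35 and 5.23 at 20 h. NDC80, which binds the microtubule itself, read 7.63, 7.71 and 7.36 in the controls and 4.88, 4.36 and 4.71 at 20 h. For both genes the groups were far apart, and all 20 h arrays lay within a band narrower than the drop. CENPI fell by 3.09 (SE 0.10, limma adjusted p = 7.62e-08) and NDC80 by 2.92 (SE 0.14, adjusted p = 3.95e-07). Of 32 kinetochore and centromere genes measured, 31 fell and 0 rose, the median change was -1.82, and 27 fell by 2-fold or more. KNL1, the scaffold of the checkpoint at the outer kinetochore, fell by 2.47, and the motor CENPE and the checkpoint kinase BUB1 fell by 2.44 and 2.39. Among 26 genes of the spindle checkpoint and the anaphase-promoting complex, 17 fell and 2 rose, with a median of -0.61. The fall included MAD2L1 at 2.06 and TTK at 2.03, both of the checkpoint, and reached the ligase subunit CDC23 at 1.49. The 2 that rose, named after their values were seen, were PTTG1, which encodes the separase inhibitor securin (0.78, SE 0.15), and MAD1L1 (0.25, SE 0.09). In 8 of the 15 alternative settings, among them those without control 2, control 3, 20 h replicate 1 or 20 h replicate 3, 1 of the list was called higher.

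Genes of mitotic entry, of the spindle and of cell division fell with them. CCNA2, which encodes cyclin A2, read 8.85, 8.87 and 8.68 in the controls and 6.24, 6.29 and 6.46 at 20 h. The groups did not overlap, and it fell by 2.47 (SE 0.10, limma adjusted p = 1.23e-07). Its partner kinase CDK1 fell by 2.14 (SE 0.12), and TPX2, which activates the kinase Aurora A at the spindle, fell by 1.75 (SE 0.07). In all, 21 of 23 mitotic kinases, cyclins and their regulators fell and 0 rose, with a median of -1.34. Each of the 17 mitotic kinesins and cytokinesis genes fell, with a median of -1.57, and 16 fell by 2-fold or more. KIF20B fell by 2.60, KIF15 by 2.40 and KIF11, the motor that pushes the spindle poles apart, by 2.37. Condensin and cohesin, the rings that compact chromosomes and hold sister chromatids, had 20 of 24 genes lower and 0 higher, or 1 higher without control 3. The condensin subunit NCAPG read 9.71, 9.65 and 9.56 in the controls and 6.77, 6.83 and 6.67 at 20 h, a fall of 2.88 (SE 0.09, limma adjusted p = 7.51e-08). SGO1, the protector of centromeric cohesion, fell by 2.57 and DSCC1, which loads the clamp for cohesion, by 3.09. Of 13 centriole duplication genes, 12 fell, among them PLK4, its master kinase, by 2.68 and ASPM, a spindle pole protein, by 2.44.

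BIRC5 moved with its partners of the chromosomal passenger complex. It read 6.59, 6.56 and 6.24 in the controls and 5.11, 5.39 and 5.16 at 20 h, with no overlap. The fall of 1.24 (SE 0.12, limma adjusted p = 2.75e-05) is 2.36-fold. The other 3 members of the complex were named after their values were seen. INCENP, its scaffold, fell by 1.40 (SE 0.09), CDCA8, which encodes borealin, by 1.34 (SE 0.14), and AURKB, which encodes its kinase Aurora B, by 1.21 (SE 0.10). The fall of BIRC5 thus lies between those of AURKB and CDCA8, and its difference from them was not tested. FOXM1, MYBL2 and LIN9, factors that act on promoters of mitotic genes, were likewise named after their values were seen and fell by 1.49, 1.61 and 1.92.

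The promoters of these genes are shown because many share short elements and their transcripts moved together. The cell cycle genes homology region (CHR) is a 6-base element, TTTGAA on either strand, that the repressor and activator complexes of mitotic genes contact. Searched on both strands from 250 bases before to 50 after the RefSeq start (GRCh38.p14), it was present in 1913 of 15336 promoters (12.5%). Among the genes at least 2-fold lower at 20 h with a promoter in the table it was present in 146 of 705 (20.7%), and among those at least 2-fold higher in 34 of 403 (8.44%). Of 114 measured members of the mitosis lists with a promoter, 52 (45.6%) held it. Of these 52, 51 fell, with a median change of -1.64, and of the 62 without it 49 fell and 2 rose, with a median of -1.09. The difference between these medians was not tested, and a match is a description of the letters, not a bound site. Of the mitosis genes that fell, the 4 with the largest changes among those whose match lies within the 150 bases before the start are shown, 5′ to 3′, with the match in capitals. Genes with a deeper fall whose match lies elsewhere in the window, such as NDC80 and PLK4, are not shown.
NCAPG, chr4:17810829-17810978, strand +: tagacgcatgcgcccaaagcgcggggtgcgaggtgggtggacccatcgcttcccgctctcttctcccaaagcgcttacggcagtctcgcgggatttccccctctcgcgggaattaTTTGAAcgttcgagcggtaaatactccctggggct
ASPM, chr1:197146670-197146819, strand -: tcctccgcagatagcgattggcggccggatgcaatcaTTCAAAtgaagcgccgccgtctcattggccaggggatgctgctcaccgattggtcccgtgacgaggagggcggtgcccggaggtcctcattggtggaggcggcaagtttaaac
KIF15, chr3:44761644-44761793, strand +: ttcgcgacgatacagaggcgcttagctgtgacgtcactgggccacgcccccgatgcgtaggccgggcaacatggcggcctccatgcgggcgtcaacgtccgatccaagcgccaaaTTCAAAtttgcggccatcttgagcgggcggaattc
KIF11, chr10:92592980-92593129, strand +: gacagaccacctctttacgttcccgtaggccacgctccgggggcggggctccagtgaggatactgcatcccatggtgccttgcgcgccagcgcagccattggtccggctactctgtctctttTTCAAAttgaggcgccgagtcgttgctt
In NCAPG and KIF15 the match begins 35 bases before the start, in KIF11 28 and in ASPM 113. In ASPM, KIF15 and KIF11 it lies on the opposite strand and so reads TTCAAA.

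DNA replication genes fell as broadly. MCM10, which activates the replicative helicase, read 7.88, 7.87 and 7.82 in the controls and 5.67, 5.59 and 5.43 at 20 h. The controls lay within 0.1 of one another, and the gene fell by 2.30 (SE 0.09, limma adjusted p = 1.34e-07). Of 25 licensing and initiation genes, 24 fell and 0 rose, with a median of -1.26, among them GINS1 of the helicase by 2.10 and the initiator kinase CDC7 by 2.03. Of 27 genes of the fork and its polymerases, 23 fell, with a median of -1.17, including POLE2, a subunit of polymerase epsilon, by 2.42 and PRIM1, the primase, by 2.38. The gene of this list that rose, POLD4, a small subunit of polymerase delta named after its value was seen, changed by 1.06 (SE 0.13), and without control 3 it was 1 of 2 called higher. Of 24 nucleotide synthesis genes, 20 fell, with a median of -0.98. TYMS, thymidylate synthase, fell by 2.14 (SE 0.10) and the ribonucleotide reductase subunits RRM2 and RRM1 by 1.95 and 1.72. The 2 that rose, MTHFD2 by 0.47 and SHMT2 by 0.38, are mitochondrial folate enzymes that also belong to the ATF4 list and were named after their values were seen. Only 1 of them was called without control 1, control 2, 20 h replicate 2 or 20 h replicate 3.

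A different element was frequent here. E2F factors bind sites that were searched as TTTCGCGC, TTTGGCGC, TTTCCCGC and TTTGCCGC on both strands, and 654 of all promoters (4.26%) held 1 of them. Of 73 replication genes with a promoter, 22 (30.1%) did, against 5 (6.85%) with a CHR. The 22 had a median change of -1.25 and the 51 without a match -1.17. Of the genes at least 2-fold lower, 72 (10.2%) held an E2F match, and of those at least 2-fold higher 18 (4.47%). The stretches before TYMS and RFC3, which encodes a subunit of the clamp loader and fell by 2.03, show the E2F match in capitals.
TYMS, chr18:657503-657652, strand +: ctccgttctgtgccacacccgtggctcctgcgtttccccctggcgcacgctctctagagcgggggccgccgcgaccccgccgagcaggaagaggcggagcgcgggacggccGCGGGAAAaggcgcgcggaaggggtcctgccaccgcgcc
RFC3, chr13:33817999-33818148, strand +: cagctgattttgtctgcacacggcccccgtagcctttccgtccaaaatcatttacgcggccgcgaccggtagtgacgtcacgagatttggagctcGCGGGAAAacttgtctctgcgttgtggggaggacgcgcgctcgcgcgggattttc
The matches begin 39 and 55 bases before the start. Searches for different elements were independent, so matches of different elements may overlap.

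The regulators upstream of S phase split. CDKN1A, which encodes the CDK inhibitor p21, read 5.78, 5.72 and 6.01 in the controls and 7.45, 7.65 and 7.76 at 20 h. It rose by 1.78 (SE 0.11, limma adjusted p = 1.56e-06) without overlap, and CDKN1C, which encodes the related inhibitor p57, rose by 1.41 (SE 0.18). RBL1, which encodes the RB-family repressor p107, fell by 2.30 (SE 0.13) and the repressor E2F8 by 2.01 (SE 0.13). Of the 28 G1 cyclins, CDK inhibitors, RB and E2F genes, 7 rose and 12 fell. Among 27 replication-dependent histone genes, whose transcripts normally peak in S phase, 11 rose and 6 fell, in contrast to the replication lists. H3C13 read 5.47, 5.41 and 5.29 in the controls and 7.02, 7.16 and 6.98 at 20 h, a rise of 1.66 (SE 0.14, limma adjusted p = 1.2e-05) with no overlap. H2BC18 rose by 2.50 (SE 0.14), while H2AC21 fell by 1.13. Histone genes are near copies of one another, so which copy a probe set reads is uncertain, and 6 of them rose when only genes above the median level were tested.

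DNA repair genes fell, most of all those of homologous recombination and crosslink repair, which act on broken and stalled forks. FANCI, whose product marks crosslinks for repair, read 7.89, 8.13 and 7.72 in the controls and 4.63, 4.76 and 4.58 at 20 h. This was the deepest fall among the named genes, 3.26 (SE 0.10, limma adjusted p = 7.51e-08), or 9.57-fold, and the groups were separated by more than their own ranges. Of 16 recombination genes, 13 fell and 0 rose, with a median of -1.45. The junction nuclease GEN1 fell by 2.67, the helicase BLM by 2.36 and BARD1, the partner of BRCA1, by 2.19. Of 14 Fanconi anaemia genes, 12 fell and 0 rose, with a median of -1.04. In end joining, base, mismatch and nucleotide excision repair, 23 of 34 fell and 1 rose, among them POLQ, the polymerase of alternative end joining, by 2.55, and PRKDC, the kinase of classical end joining, by 1.67. Of 12 damage checkpoint genes 8 fell, with ATR by 1.43 and CHEK1 by 1.26. H2AX, the histone variant phosphorylated at breaks, was the 1 of them that rose, by 0.64 (SE 0.15, limma adjusted p = 0.00897).

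**Figure D3:**
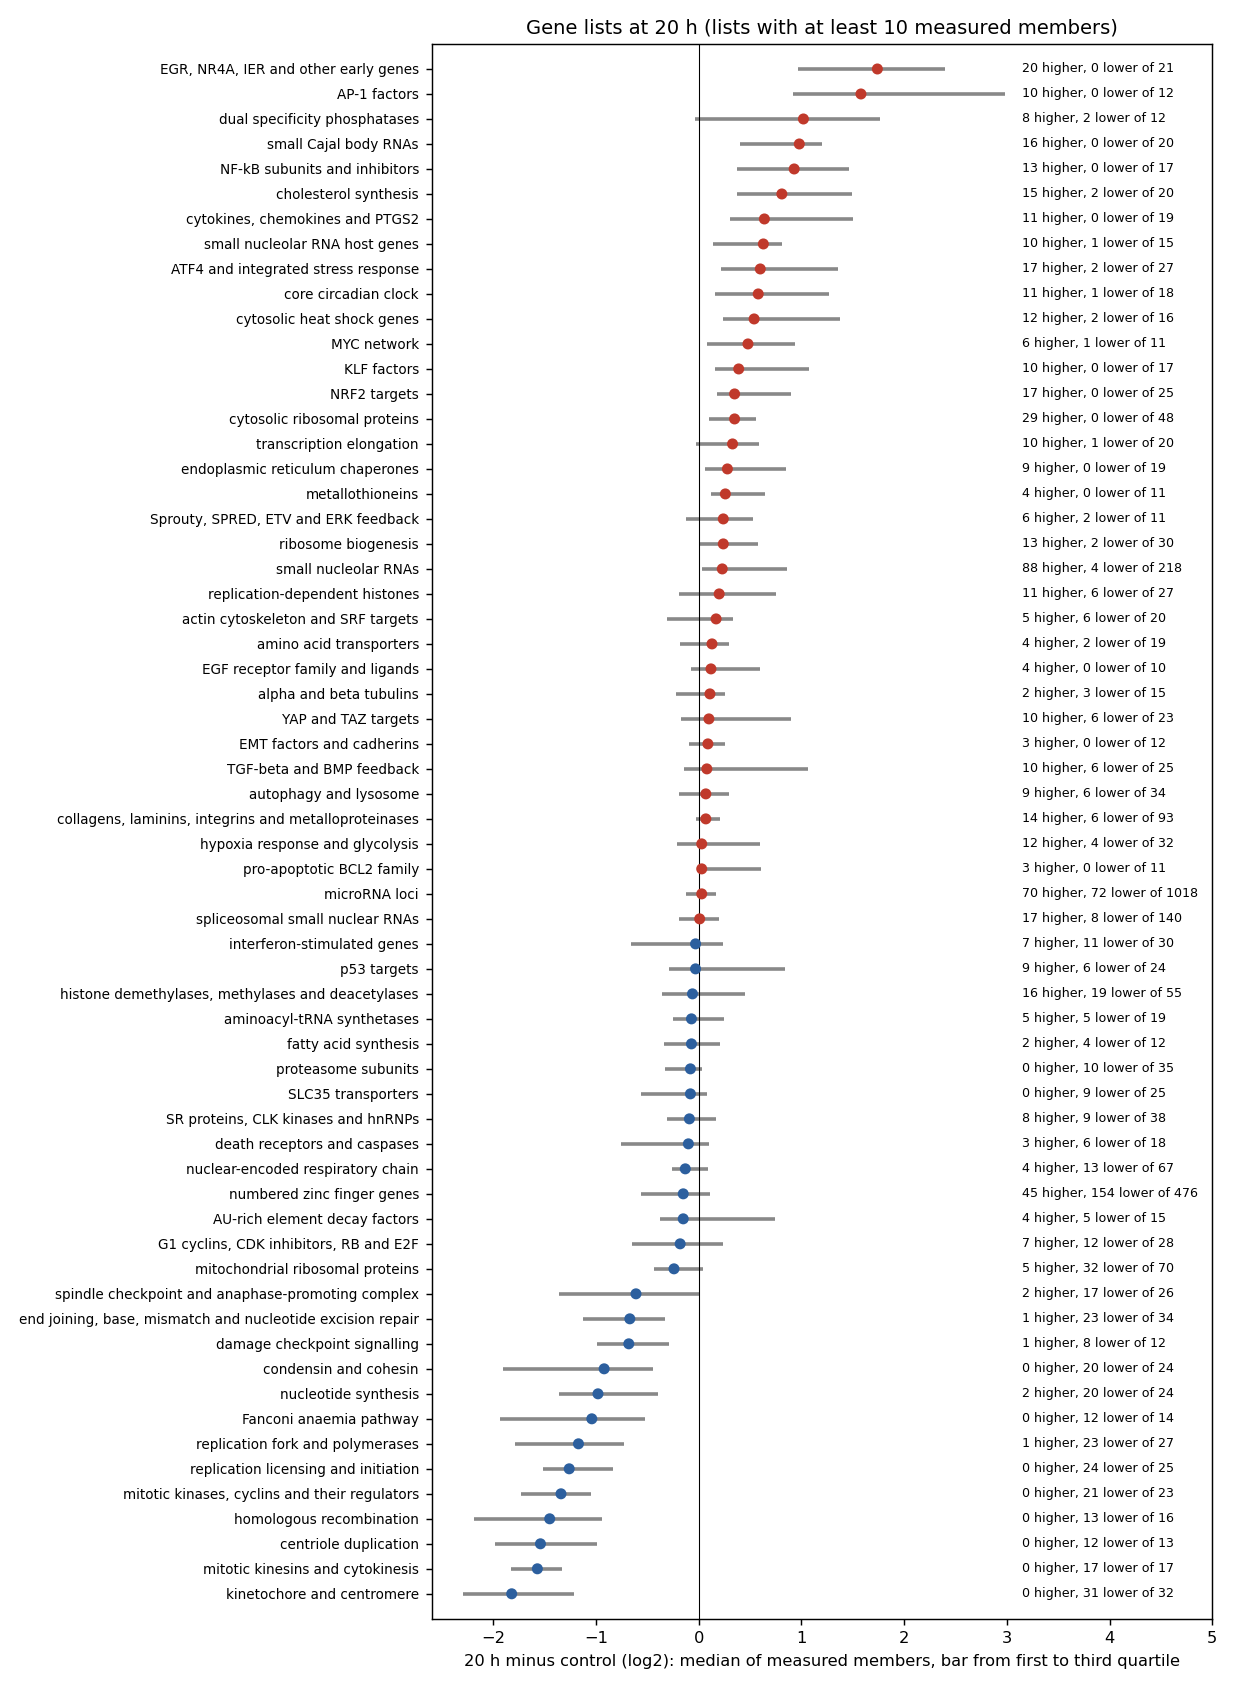
Each line is 1 gene list with at least 10 measured members. The point is the median 20 h minus control change (log2), the bar runs from the first to the third quartile of the members, and the text gives the members called higher and lower. The lowest medians are those of kinetochore (-1.82), cytokinesis (-1.57) and centriole (-1.54) genes and the highest those of the early genes (1.74) and AP-1 factors (1.58), against 0.028 over all genes.

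Regulators of apoptosis changed in both directions. Of 6 inhibitor of apoptosis genes measured, 3 fell: BIRC5, BIRC2 by 0.70 and NAIP by 0.75. Of the 6, 0 were called higher, or 1 without control 1. XIAP, the caspase inhibitor, changed by -0.27 (SE 0.11), which did not pass limma's test (adjusted p = 0.0860). MCL1, a pro-survival protein of the BCL2 family, read 8.97, 8.97 and 8.98 in the controls and 9.55, 9.54 and 9.48 at 20 h, a rise of 0.54 (SE 0.07) without overlap. BCL2 fell by 1.12 (SE 0.14). Of 11 pro-apoptotic relatives, 3 rose and 0 fell, and all 3 encode BH3-only proteins, the sensors that bind the pro-survival members. BCL2L11, which encodes BIM, read 4.60, 4.36 and 4.79 in the controls and 6.11, 5.77 and 5.77 at 20 h and rose by 1.30 (SE 0.13). PMAIP1, which encodes NOXA, rose by 1.26 (SE 0.09) and BBC3, which encodes PUMA, by 0.89 (SE 0.09). Of 18 death receptor and caspase genes 6 fell and 3 rose, near the shares of all genes in the brighter level groups. The caspase genes CASP6, CASP8 and CASP2 fell by 1.64, 1.16 and 1.10, the apoptosome scaffold APAF1 by 0.97 and the adaptor FADD by 0.89. Of 24 p53 targets, in a line known to carry mutant p53, 9 rose and 6 fell. SESN2, which restrains mTORC1, rose by 2.65 (SE 0.24) and DDB2 fell by 1.07 (SE 0.10). The carrier SLC35F2, through which YM-155 is reported to enter cells, read 8.28, 8.13 and 8.45 in the controls and 8.51, 8.32 and 8.28 at 20 h, and these ranges overlap (0.08, SE 0.10, limma adjusted p = 0.591).

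Immediate early genes were among the largest rises. FOSB, an AP-1 subunit, read 4.83, 4.96 and 6.31 in the controls and 9.43, 9.56 and 9.53 at 20 h, and rose by 4.14 (SE 0.31, limma adjusted p = 5.66e-06). ARC read 4.06, 3.23 and 4.08 in the controls and 7.69, 8.07 and 8.00 at 20 h, and rose by 4.13 (SE 0.25, adjusted p = 1.52e-06). EGR1 read 5.77, 6.18 and 8.55 in the controls and 10.84, 10.73 and 11.01 at 20 h, and rose by 4.03 (SE 0.56, adjusted p = 0.000308). The treated arrays were close together in all 3 genes, and control 3 was the highest control. Of 12 AP-1 genes 10 rose and 0 fell, with FOS up by 2.92 and JUNB by 3.14, and of 21 EGR, NR4A, IER and other early genes 20 rose and 0 fell. Their medians were 1.58 and 1.74. Both lists were higher in control 3 than in the other controls by a median of 0.43, and without it 10 and 21 rose, with medians of 1.72 and 1.87. The orphan nuclear receptors NR4A1, NR4A2 and NR4A3 rose by 2.63, 2.52 and 2.61, and SNAI1, the repressor of E-cadherin, by 3.32. SNAI1 read 4.92, 4.66 and 4.86 in the controls and 8.09, 8.15 and 8.15 at 20 h, with control 3 between the other controls. Its target CDH1 changed by 0.34 (SE 0.12), and the limma adjusted p was 0.0514. Of the 12 EMT factors and cadherins 3 rose, 0 fell and 9 were not called, with a median of 0.09. SNAI2 was also among the 3, up by 1.95.

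Feedback genes of MAP kinase signalling changed in both directions. Dual specificity phosphatases remove phosphate from MAP kinases, and 8 of 12 rose while 2 fell. DUSP1 rose by 2.51 and DUSP10 by 2.19, but DUSP6, the phosphatase specific to ERK, fell by 0.46 (SE 0.08). Without 20 h replicate 3, 1 of the list was called lower. The phosphatase list was higher in control 3 than in the other controls by a median of 0.35, and without that array 8 rose and 2 fell. Of the Sprouty, SPRED, ETV and ERK feedback genes 6 of 11 rose and 2 fell, with SPRY2 up by 1.68 and SPRY1 down by 0.96. RGS2 and RASD1, regulators of G protein signalling, rose by 3.16 (SE 0.11) and 3.34 (SE 0.25). Of the 10 EGF receptor family and ligand genes 4 rose, among them the ligands EREG by 1.77 and HBEGF by 1.63 and the receptor gene EGFR by 0.61. Of 17 KLF factors 10 rose and 0 fell, with KLF4 up by 1.86 and KLF2 by 1.80. Of 18 clock genes 11 rose and 1 fell, including the repressor PER1 by 2.40 and BHLHE40 by 2.32. This list was higher in control 3 by 0.38, and without that array 14 rose.

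NF-kB genes rose, and the feedback inhibitors of the pathway were among the highest of them. TNFAIP3, which encodes the ubiquitin-editing inhibitor A20, read 5.70, 5.41 and 6.66 in the controls and 10.20, 10.21 and 10.12 at 20 h. This was the largest rise of all genes tested, 4.25 (SE 0.25, limma adjusted p = 1.06e-06), or 19-fold. NFKBIA, which encodes the inhibitor that holds NF-kB in the cytoplasm, read 7.69, 7.55 and 8.12 in the controls and 9.46, 9.67 and 9.55 at 20 h and rose by 1.77 (SE 0.13). The subunit genes REL, RELB and NFKB1 rose by 1.70, 1.46 and 1.21. Of 17 subunits and inhibitors 13 rose and 0 fell, with a median of 0.93. Control 3 was higher for this list by 0.41, and without it 14 rose. Of 19 cytokine, chemokine and PTGS2 genes 11 rose and 0 fell. CXCL8, the neutrophil chemokine, rose by 2.82, the IL-6 family cytokines IL11 and LIF by 2.57 and 1.70, and PTGS2, inducible cyclooxygenase, by 2.41. Of 15 factors that act on AU-rich elements, which mark such transcripts for decay, 4 rose and 5 fell, and the median was -0.15. These counts were near the shares of all genes in the brighter level groups. ZFP36, which encodes tristetraprolin, rose by 2.40 and ZC3H12A, which encodes regnase-1, by 1.94, while the RNA-binding protein gene TIA1 fell by 1.67. Without control 2 or without 20 h replicate 2, 3 of the list fell.

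Elements for NF-kB, searched by their usual consensus (kappaB) on both strands, occurred in 1883 of all promoters (12.3%). Among 29 NF-kB and cytokine genes with a promoter, 13 (44.8%) held a match, of which 7 rose with a median change of 0.64, while 13 of the 16 without a match rose with a median of 0.91. The match therefore did not go with the larger median in this list. Among the genes at least 2-fold higher 62 of 403 (15.4%) held it. The full cAMP response element TGACGTCA was present in 6.2% of those promoters, in 3.83% of the genes at least 2-fold lower and in 2.56% of all. The AP-1 element TGANTCA was present in 9.43%, 2.27% and 6.08% of the same sets. The stretches before TNFAIP3 and NFKBIA are shown as those of the list's feedback inhibitors, with kappaB matches in capitals.
TNFAIP3, chr6:137867109-137867258, strand +: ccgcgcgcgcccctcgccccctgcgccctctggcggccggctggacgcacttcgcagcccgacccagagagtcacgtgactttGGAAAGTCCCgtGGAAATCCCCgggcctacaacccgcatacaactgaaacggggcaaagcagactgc
NFKBIA, chr14:35404750-35404899, strand -: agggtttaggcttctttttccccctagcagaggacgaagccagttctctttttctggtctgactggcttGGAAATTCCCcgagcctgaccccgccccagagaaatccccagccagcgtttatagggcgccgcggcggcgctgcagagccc
TNFAIP3 holds a pair of matches, the nearer beginning 55 bases before the start, and NFKBIA 1 match beginning 81 bases before it.

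Stress programmes rose in part. The integrated stress response acts through the translation of ATF4, whose targets supply amino acids or restrain growth. ATF3 read 2.83, 3.68 and 3.52 in the controls and 7.03, 6.96 and 6.74 at 20 h, a rise of 3.57 (SE 0.19, limma adjusted p = 5.71e-07). PPP1R15A, which encodes the phosphatase subunit GADD34, rose by 2.40 (SE 0.25), CHAC1, which degrades glutathione, by 1.66 and DDIT3, which encodes CHOP, by 1.60. Of 27 genes of this list 17 rose and 2 fell, with a median of 0.60. Of 19 endoplasmic reticulum chaperones 9 rose and 0 fell, with HERPUD1 up by 1.63 and HSPA5, which encodes BiP, by 1.14 (SE 0.07), while the list's median was 0.28. Without control 3, 2 of them were also called lower. Of 16 cytosolic heat shock genes 12 rose and 2 fell. HSPA6, a strictly inducible HSP70, read 3.12, 2.53 and 3.34 in the controls and 6.20, 5.76 and 6.20 at 20 h, and rose by 3.05 (SE 0.20, limma adjusted p = 2.47e-06). CHORDC1, a cochaperone of HSP90, read 6.91, 6.83 and 6.69 in the controls and 9.93, 9.68 and 9.92 at 20 h, and rose by 3.03 (SE 0.10, adjusted p = 7.51e-08). The groups of both genes were clearly separate, while HSPA4L and HSPA4, named after their values were seen, fell by 0.74 and 0.45. Of 25 NRF2 targets, the genes of oxidant defence, 17 rose and 0 fell, though by a median of 0.35. HMOX1, heme oxygenase, rose by 1.87 (SE 0.08), SRXN1 by 1.47 and GCLM, of glutathione synthesis, by 1.32. Among 11 metallothioneins 4 rose, with MT1X up by 1.22, and 2 rose without 20 h replicate 3.

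Sterol synthesis genes rose, while fatty acid synthesis genes were called about as often as all genes of their level. HMGCS1, which makes HMG-CoA, read 5.23, 5.44 and 5.20 in the controls and 8.31, 8.21 and 8.15 at 20 h, a rise of 2.93 (SE 0.09, limma adjusted p = 7.40e-08). INSIG1, the feedback regulator that retains the sterol sensor in the endoplasmic reticulum, read 7.98, 7.95 and 8.04 in the controls and 10.46, 10.34 and 10.55 at 20 h, a rise of 2.46 (SE 0.09, adjusted p = 8.16e-08). The ranges within each group were small beside these differences. The enzymes MSMO1, IDI1 and DHCR7 rose by 1.98, 1.94 and 1.56, and 15 of 20 genes rose in all, with a median of 0.81. The regulator INSIG2 and the kinase PMVK, named after their values were seen, fell, by 0.71 and 0.37. Only 1 of these was called without control 1, control 3, 20 h replicate 1 or 20 h replicate 3. Of 12 fatty acid genes 2 rose, SCD by 0.91 and FASN by 0.77, and 4 fell, with the elongase ELOVL6 down by 0.89. All 12 lay above the median level. In the third and highest level groups 16.6% and 23.4% of all genes rose, and 28.2% and 34% fell. In the hypoxia and glycolysis list 12 of 32 rose and 4 fell, and the median was 0.03. SLC2A3, a glucose transporter, rose by 1.73 and the vasodilator peptide gene ADM by 1.62. The count of 4 lower was 8 with the arrays centred on their medians and also when only genes above the median level were tested. It was 2 without any 1 of control 1, control 2, control 3 and 20 h replicate 2, and 1 without 20 h replicate 3. TXNIP, a brake on glucose uptake, fell by 1.05 (SE 0.11).

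**Figure D4:**
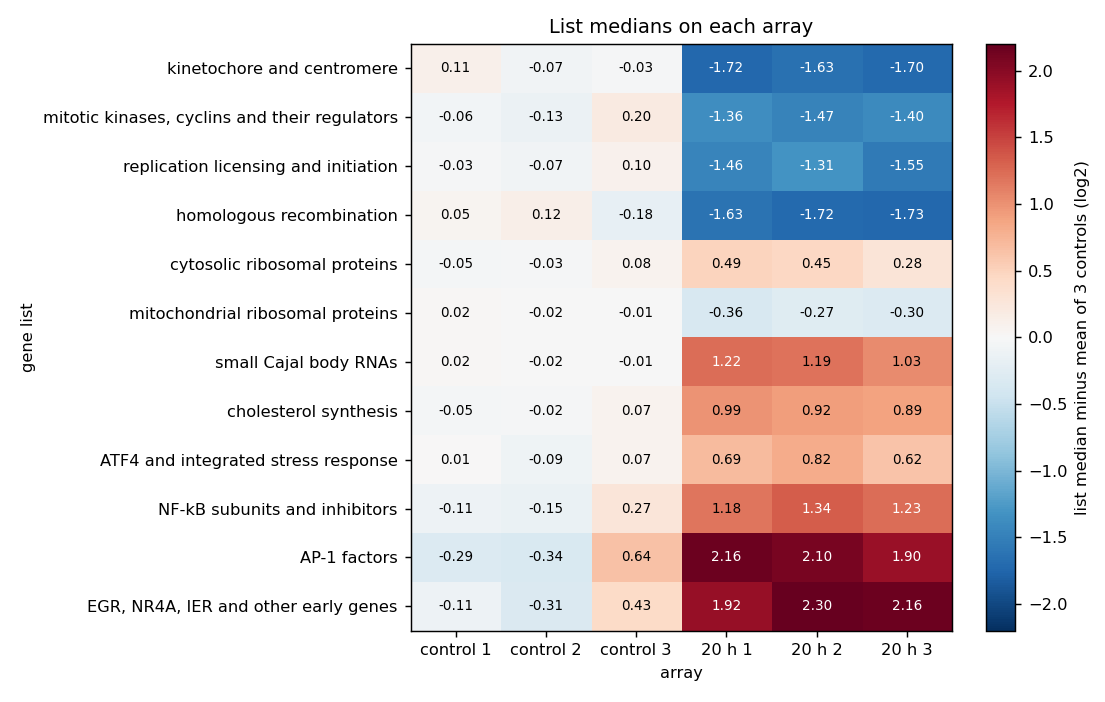
Each cell is the median level of a gene list on 1 array minus the mean of that median over the 3 controls (log2), for 12 lists and the 6 arrays. Red is higher and blue lower. The 3 arrays of the 20 h group have the same sign in every list shown, and control 3 lies 0.64 above the control mean for AP-1 factors and 0.43 for the early genes. The 12 lists were selected from the 73, so the shared sign does not describe the others.

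Genes of the cytosolic and the mitochondrial ribosome diverged. Of 48 cytosolic ribosomal protein genes 29 rose and 0 fell, with a median of 0.35, and RPL28 rose most, by 1.31 (SE 0.12). Of 70 mitochondrial ribosomal proteins 32 fell and 5 rose, with a median of -0.24, and MRPL39 fell by 1.24 (SE 0.17). The 5 that rose became 0 without control 2, 1 without control 1 and 2 without 20 h replicate 1. Of 67 nuclear-encoded respiratory chain genes 13 fell and 4 rose, with ATP5F1A, of the ATP synthase, down by 0.87. The lower share was close to the 17.2% of all genes. However, 59 of the 67 lay above the median level, and it was below the shares of all genes there. Those were 28.2% in the third level group and 34% in the highest. There were 20 lower with the arrays centred on their medians, and also when only genes above the median level were tested. There were 7 lower and 2 higher without 20 h replicate 2, 8 lower without control 2 and 8 higher without control 3. Of 30 ribosome biogenesis genes 13 rose and 2 fell, with BYSL up by 0.97. The count of 2 was 1 without control 1, control 2 or any 20 h array. Of 35 proteasome subunits 10 fell and 0 rose, with PSMD5 down by 1.16, and 1 was called higher without control 3 or without 20 h replicate 3. Above the median level lay 33 of the 35, so the lower count was near the 28.2% and 34% of all genes there. MYC, a driver of ribosome synthesis, read 6.84, 6.58 and 7.55 in the controls and 9.42, 9.52 and 9.30 at 20 h and rose by 2.43 (SE 0.20, limma adjusted p = 9.48e-06).

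Small nucleolar and Cajal body RNAs read higher, while most spliceosomal RNA loci were not called. Small nucleolar RNAs guide the modification of ribosomal RNA, and their Cajal body relatives guide that of spliceosomal RNA. Of 218 small nucleolar RNA genes 88 rose and 4 fell, where 13.1% and 17.2% of all genes did, and 36 rose at least 2-fold. SNORD14E read 6.14, 6.09 and 6.03 in the controls and 8.61, 8.65 and 8.73 at 20 h, a rise of 2.58 (SE 0.07, limma adjusted p = 6.80e-08) with tight groups. Of 20 small Cajal body RNAs 16 rose and 0 fell, with a median of 0.98, of which SCARNA21 and SCARNA11 rose by 1.80 each. RNAs of the minor spliceosome, which removes a rare class of introns, rose as well: RNU12 by 2.67, RNU11 by 2.19, RNU6ATAC by 1.87 and RNU4ATAC by 1.30. RNU11 read 7.67, 7.79 and 8.94 in the controls and 10.26, 10.46 and 10.24 at 20 h, so control 3 was nearest to the treated arrays. Most of the 140 spliceosomal RNA loci are pseudogene copies with low levels. Of the 140, 17 rose, 8 fell and 115 were not called, with a median of 0.01. Of all genes 13.1% rose and 17.2% fell, so the minor spliceosome RNAs named here do not describe the list. Of 15 small nucleolar RNA host genes 10 rose and 1 fell, with SNHG15 up by 1.43. Many of these RNAs lie in introns of host genes, and a probe set at such a locus also reads unspliced host RNA.

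MicroRNA loci are read in the same way, so the values describe RNA at the locus, including primary transcripts, and not the mature miRNA. Of 1018 loci 70 rose and 72 fell, shares of 6.88% and 7.07%, against 13.1% and 17.2% of all genes. Of the 226 loci above the median level, 34 rose and 34 fell. Of all genes in the third level group 16.6% rose and 28.2% fell, and in the highest group 23.4% and 34%. The mature forms of 7 loci are shown, 5′ to 3′ with the seed (bases 2 to 8, which pairs with targets) in capitals, as RefSeq gives them. The forms of MIR221 and MIR222, and those of MIR29A and MIR29C, are shown because they share a seed. Those of let-7a and miR-100 are shown because their loci are neighbours. That of miR-27a is shown for the rise at its locus, although MIR3143 (2.44) and MIR554 (2.31) rose more. MIR21, MIR221, MIR222, MIR29A, MIR29C and MIR100 were named after their values were seen.
hsa-let-7a-5p: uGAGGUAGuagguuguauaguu
hsa-miR-100-5p: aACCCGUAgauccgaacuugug
hsa-miR-27a-3p: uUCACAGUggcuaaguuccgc
hsa-miR-221-3p: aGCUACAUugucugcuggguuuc
hsa-miR-222-3p: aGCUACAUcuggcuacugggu
hsa-miR-29a-3p: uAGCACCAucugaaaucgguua
hsa-miR-29c-3p: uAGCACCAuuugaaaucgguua
MIRLET7A2 read 8.16, 8.24 and 7.62 in the controls and 4.89, 4.79 and 5.32 at 20 h, a fall of 3.00 (SE 0.18, limma adjusted p = 1.25e-06) with no overlap. MIR100, near it on chromosome 11 on the same strand, fell by 1.13 (SE 0.17). MIR221 and MIR222 share the seed GCUACAU and are neighbours on the X chromosome, yet the MIR221 locus fell by 1.11 (SE 0.12) and the MIR222 locus rose by 1.45 (SE 0.19). MIR221 read 7.92, 7.81 and 7.78 in the controls and 6.98, 6.57 and 6.63 at 20 h. MIR222 read 6.29, 5.90 and 6.59 in the controls and 7.67, 7.67 and 7.78 at 20 h. Neither pair of groups overlapped. MIR29A and MIR29C, which share the seed AGCACCA but lie on chromosomes 7 and 1, fell by 1.09 and 0.96. MIR27A rose by 2.30 (SE 0.23, limma adjusted p = 3.33e-05) and MIR21 fell by 1.66 (SE 0.14).

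Chromatin, splicing and transcription genes were called both ways, in several lists about as often as all genes of their level. In the third level group 16.6% of all genes rose and 28.2% fell, and in the highest 23.4% and 34%. Most members of each list here lay above the median level. The counts of the histone enzyme, SR protein and interferon lists were near those shares. Of 55 histone demethylases, methylases and deacetylases 16 rose and 19 fell. The demethylase KDM6B read 5.31, 5.33 and 6.60 in the controls and 8.41, 8.52 and 8.74 at 20 h and rose by 2.81 (SE 0.29, limma adjusted p = 3.83e-05). KDM7A rose by 2.40 and the deacetylase SIRT1 by 1.72, while UHRF1, which maintains DNA methylation behind the fork, fell by 1.61. Of 20 elongation factors 10 rose and 1 fell, with ELL up by 1.14. The 1 was 2 without control 3 or without 20 h replicate 1. Among SR proteins, CLK kinases and hnRNPs 8 of 38 rose and 9 fell, and 5 rose without control 2. Of the 476 numbered zinc finger genes, most of them repressors, 154 fell and 45 rose, with a median of -0.15 and ZNF141 down by 1.84. Interferon-stimulated genes gave 7 higher and 11 lower of 30, with IFIT5 down by 1.59 and OAS3 by 1.46. TGF-beta and BMP feedback gave 10 higher and 6 lower of 25, with the ligand BMP2 up by 1.84 and ID1, a target of BMP signals, down by 1.53. YAP and TAZ targets gave 10 and 6 of 23, with CCN2, a matrix protein, up by 1.66. Autophagy and lysosome genes numbered 34, of which 9 rose, with the sialidase NEU1 up by 1.54, and 6 fell. The 6 became 3 without control 1, control 2 or 20 h replicate 3. Of 8 reference genes 3 fell and 0 rose, with HPRT1 down by 0.99 and PPIA by 0.64.

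Markers of other cell types were checked in the same arrays. Of 18 luminal epithelium markers 7 rose and 0 fell, with TFF1 up by 1.38 and CLDN3 by 1.00. Their summed level on a linear scale was 673 to 768 in the controls and 884 to 934 at 20 h, with 7 of 18 at or below the median level of all genes. Of 17 leukocyte markers 7 rose and 0 fell, and 14 of the 17 were at or below the median level. Their sum was 1753 to 1817 in the controls and 2570 to 2676 at 20 h, and CD68, CD74 and HLA-DRA were the 3 above that level. Their count of 7 was 4 without control 1, control 2 or 20 h replicate 3 and 3 without 20 h replicate 2. PTPRC, the common leukocyte gene, was near the floor on all arrays. Of 10 endothelial and fibroblast markers 1 fell and 0 rose. Olfactory receptor genes, of which 344 of 354 lay at or below the median level, gave 25 higher and 6 lower. Their sum was 1965 to 2011 in the controls and 2062 to 2137 at 20 h. The count of 25 was 13 with the arrays centred on their medians. Over all genes 13.1% rose and 17.2% fell. The part of these markers in the other results was not tested.

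The 20 h cells were last compared with the 8 h cells directly. Of 22109 genes 1979 (8.95%) were higher and 3012 (13.6%) lower at 20 h than at 8 h, and 1314 were higher without 8 h replicate 3. Of the 864 genes at least 2-fold lower than control at 20 h, 798 were also lower than at 8 h, and of the 585 at least 2-fold higher 464 were also higher. These genes were chosen on the same 20 h arrays, which favours such counts, so they are given as a description only. Dose differs between these groups as well as time. NCAPG had changed by -0.42 at 8 h against -2.88 at 20 h, and PLK4 by 0.04 against -2.68. Of the 32 kinetochore genes 31 were lower at 20 h than at 8 h, as were all 17 of the kinesin and cytokinesis list and 21 of the 25 licensing genes. BIRC5 was lower by 0.77 (SE 0.12, limma adjusted p = 0.00124). ARC, up by 0.82 at 8 h, was higher at 20 h by 3.31 (SE 0.25, adjusted p = 1.98e-05), and RGS2 and SNAI1 were higher by 2.69 and 2.47. TNFAIP3 had changed by 3.53 at 8 h and 4.25 at 20 h, and the difference of 0.72 (SE 0.25) did not pass (adjusted p = 0.0643). BHLHE40 changed by 2.37 and 2.32. The hypoxia and glycolysis list ran the other way, with 2 members higher and 14 lower at 20 h than at 8 h and a median change from control of 0.31 at 8 h against 0.03. MCL1 and SLC35F2 differed between 20 h and 8 h by -0.21 (adjusted p = 0.0706) and 0.16 (adjusted p = 0.291). H2AX, at -0.51 at 8 h and 0.64 at 20 h, was higher at 20 h by 1.16 (SE 0.15).

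**Figure D5:**
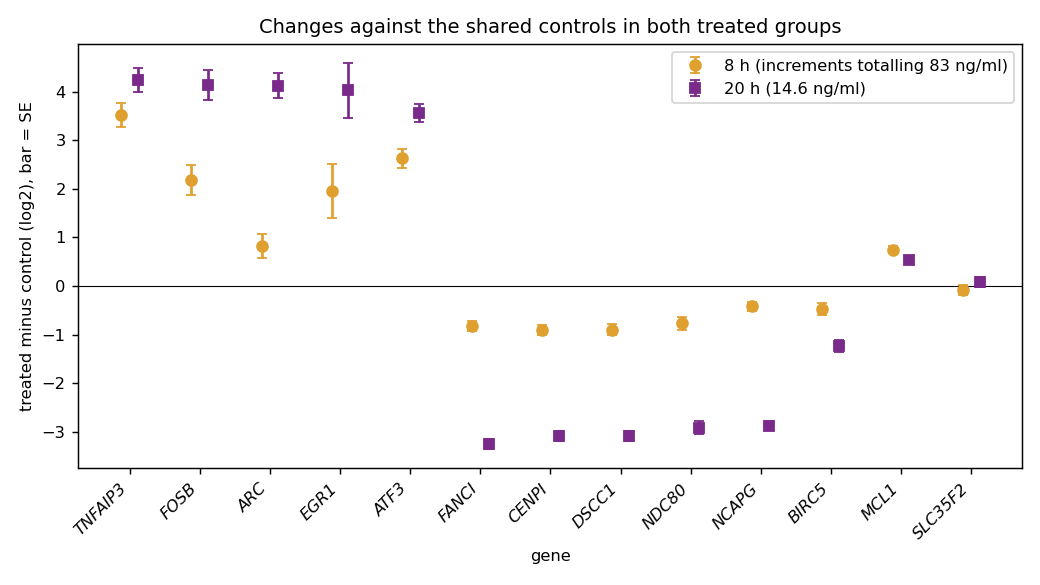
Change from the shared controls (log2, vertical axis, bars give the SE) at 8 h (orange circles) and 20 h (purple squares) for 13 genes. The 5 falls from FANCI to NCAPG lie between -0.42 and -0.90 at 8 h and between -2.88 and -3.26 at 20 h, while TNFAIP3 lies above 3 in both groups.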

How the data were processed

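Per the submitters' processing notes, the authors used Affymetrix Expression Console and RMA. The deposited series values behave as log2 intensities (0.796 to 12.454). Versions and genome build are not given in the sources used here. Of 53617 probe sets, 23558 had 1 gene symbol in the platform annotation, 2155 several and 27904 none listed there. The brightest probe set was kept for the 618 symbols with several, which gave 22109 genes. Symbols were updated through RefSeq identifiers (3 changed, 544 genes not matched). limma 3.58.1 (R 4.3.3; lmFit, eBayes) fitted 3 group means to all 9 arrays, with 6 residual and 4.01 prior degrees of freedom. Tests were two-sided. An exact permutation test of 3 against 3 cannot go below p = 0.1.

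The compared groups, 73 gene lists and motifs were chosen with earlier results of these data known. The genes named were the 15 that rose most and the 15 that fell most (adjusted p under 0.05, no overlap of groups, mean above the median of all genes, no unnamed loci or small RNAs), BIRC5, MCL1 and SLC35F2, and, from each list, at most 6 called members (any member of short or marker lists). Other names are said to be chosen after their values were seen. Alternatives were filters, collapsing, normalization, variance models and left-out arrays. The fit was tested on simulated data. Promoters (15336 genes) and miRNAs come from RefSeq tables for GRCh38.p14. Python 3.11.15 made the tables.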

Additional observations from a re-analysis of the deposited data

Results flagged for a closer look

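The change from control differed between the 20 h and the 8 h arrays, by the limma test of 20 h against 8 h, for 10 of the 13 genes compared across the treated groups. Of the 13, 10 were chosen as the 5 largest rises and 5 largest falls at 20 h, a choice that favours a larger change at 20 h. Over all genes 8.95% were higher and 13.6% lower at 20 h than at 8 h. On the log2 scale 20 h minus 8 h was 1.95 for FOSB, 3.31 for ARC, 2.07 for EGR1 and 0.94 for ATF3. It was -2.44 for FANCI, -2.19 for CENPI, -2.19 for DSCC1, -2.15 for NDC80, -2.47 for NCAPG and -0.77 for BIRC5. Dose differs between the treated groups as well as time, and the cause was not tested.

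Probe sets that the annotation pairs with no gene also gave signal. Of these 27904 probe sets 2314 (8.29%) were higher at 20 h than in the controls and 1846 (6.62%) lower. Of them, 727 were higher and 669 lower at least 2-fold. The limma p-values were adjusted over all 53617 probe sets of the array, not over these alone.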

How the results depend on the processing

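For 20 h against control, all 4 counts of genes (higher and lower, any size and at least 2-fold) stayed within 1.5 times their main values in all 15 alternatives. Without 1 array in turn, 2282 to 3161 genes were higher and 3339 to 3730 lower, and at least 2-fold 537 to 705 and 835 to 955. Centring the arrays on their medians gave 2501 higher and 4219 lower. Of 424 named genes with a call, 396 kept it in each of the 14 alternatives with 1 value per gene in which they were tested, 28 lost it in at least 1 and 0 changed direction. The 30 largest changes kept their calls. For 20 h against 8 h, the genes higher numbered 1314 to 1732 without 1 array in turn, against 1979, and the lowest of these, without 8 h replicate 3, was the only count that moved by more than 1.5 times. Genes lower numbered 2297 to 2692, and at least 2-fold 216 to 266 were higher and 350 to 436 lower. The labels number the replicates, but deviations of same-numbered control and 20 h arrays correlated at 0.0968, -0.0563 and 0.111, so the numbers were not taken to pair the arrays. With the number as a replicate block, 2712 genes were higher and 3619 lower at 20 h than in control, and 1747 higher and 2772 lower than at 8 h. The number of arrays, and low signal in the dimmest genes, limit what small changes can be called.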
